A study of Mus musculus with 13 samples.

Results

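The BCL2 family decides whether a T cell lives or dies, and 10 of its genes were followed here across CD4 single-positive (CD4SP) thymocytes that matured with or without cathepsin L (CTSL) in the thymic epithelium. They were chosen by name: the death inhibitors Bcl2, Bcl2l1, Mcl1, Bcl2a1b and Bcl2a1d, the BH3-only genes Bcl2l11, Bbc3 and Pmaip1, and the effectors Bax and Bak1. They are 10 of the 35906 genes listed in the deposited tables, of which 22490 had an estimated count above 0 in any library. All 10 had counts in every library and passed the filter on low counts in each comparison.

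The study asked how peptides displayed by thymic epithelial cells (TECs) during positive selection shape the fitness of the CD4+ T cells they select. CTSL is a lysosomal protease that trims the invariant chain and prepares peptides for MHC class II. In CtslΔTEC mice a conditional Ctsl allele was removed by a Foxn1-cre transgene, which is active in TECs; other epithelia such as skin also express Foxn1. Each library came from 1 mouse, and the sequenced cells were sorted M2 thymocytes (CD69- MHCI+), the most mature CD4SP stage.

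All 13 mice, controls included, were Rag1-/- and carried the Lm54 T cell receptor transgene, which recognises a peptide of listeriolysin O (LLO) on I-Ab, so the comparison is within 1 clonotype. The controls are labelled Ctsl fl/fl (WT). The strain background was C57BL/6J. The study's methods give 8 to 12 weeks as the usual age of its mice, and no age for single mice. There were 5 unstimulated CtslΔTEC libraries (mice 1 to 5) and 4 unstimulated controls (mice 1 to 4). The stimulated libraries were 2 of each genotype (CtslΔTEC mice 6 and 7, control mice 5 and 6), whose cells were cultured for 4 h on plate-bound LLO:I-Ab monomer at 1 µg/ml with soluble anti-CD28 at 250 ng/ml. Cells that were cultured without a stimulus are not among the samples, so culture and stimulation cannot be told apart.

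BCL2 family proteins meet at the outer membrane of the mitochondrion. BAX and BAK form the pores that release cytochrome c. BCL-2, BCL-xL (the product of Bcl2l1), MCL-1 and A1 (the products of the Bcl2a1 genes) hold them in check, and the BH3-only proteins BIM (Bcl2l11), PUMA (Bbc3) and NOXA (Pmaip1) bind and neutralise those inhibitors. In the thymus BIM is required for the deletion of cells that bind self-ligands too strongly, and interleukin-7 sustains mature T cells in large part through BCL-2 and MCL-1.

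Library totals ranged from 25692380 to 39127833 estimated counts among the 9 unstimulated libraries and from 8085463 to 27184520 among the 4 stimulated ones, so the stimulated groups have less depth as well as fewer mice. The lowest member value was 15.7 estimated counts, for Bcl2a1d. Cd69, an activation marker, averaged 52.0 TPM in unstimulated controls and 2568 TPM in stimulated controls. Nr4a1, an immediate target of the T cell receptor, averaged 62.7 and 3560 TPM in the same groups. The T cell genes Cd3e, Cd3g, Trac, Cd4, Lck and Cd5 summed to 4785 TPM or more in every library. Ctsl itself checks nothing here, because it was deleted in TECs: thymocytes held 6.74 ± 1.64 TPM of it in controls (SD, n = 4) and 12.6 ± 2.48 TPM in CtslΔTEC mice (SD, n = 5). Rag1 transcripts, which a disabled allele can still make, averaged 0.732 TPM in unstimulated controls and 2.70 TPM in CtslΔTEC mice. The TEC genes Foxn1, Krt5, Krt8 and Krt14 were at or near 0 in every library, and the 6 TEC genes summed to at most 11.1 TPM, nearly all of it Epcam.

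Several features of the samples move with genotype and stand beside every genotype result below. The summed level of 9 genes of immature double-positive (DP) thymocytes was 115 to 160 TPM in unstimulated controls and 391 to 472 TPM in CtslΔTEC libraries; 7 of the 8 tested rose, Cd8a and Cd8b1 among them. After stimulation the sum was 30.5 to 35.5 TPM in controls and 65.2 to 70.8 TPM in CtslΔTEC libraries. The 5 genes of mature thymocytes all fell, from a summed 1849 to 2145 TPM to a summed 1335 to 1487 TPM, and in stimulated cells they summed to 252 to 371 and 155 to 210 TPM. The 4 genes of regulatory T cells summed to 3.34 to 7.24 TPM in unstimulated controls and 9.68 to 14.4 TPM in CtslΔTEC libraries, with Il2ra and Ctla4 higher, Ikzf2 lower, and Foxp3 below 1 TPM in every library. Of the T cell genes Cd5, which tracks T cell receptor signal strength, was lower at rest, at 211 to 295 TPM in controls and 114 to 143 TPM in CtslΔTEC libraries. Of the activation genes Irf4 was lower, at 15.8 to 27.2 and 7.64 to 13.8 TPM, and of the TEC genes Epcam was higher, at 1.10 to 1.65 and 1.56 to 3.28 TPM. The Y-linked gene Ddx3y was at 45.6 to 70.6 TPM in all 5 unstimulated CtslΔTEC libraries but in only 1 of the 4 controls, mouse 3, at 56.9 TPM, while the stimulated groups each held 1 library with and 1 without it. At rest genotype and Y-linked transcripts thus nearly coincide and cannot be told apart. B cell genes summed to at most 1.79 TPM and myeloid genes to at most 11.7 TPM in any library, with Cd14, S100a8 and S100a9 at or near 0. The myeloid sum was 3.8 to 6.48 TPM in unstimulated controls and 3.16 to 7.39 TPM in CtslΔTEC libraries, where Itgam was lower and Csf1r higher of 4 tested. In stimulated cells it was 3.6 and 11.7 TPM in controls and 1.57 and 1.63 TPM in CtslΔTEC libraries, with Itgax lower of 5 tested, at 2.51 and 8.55 TPM against 0.142 and 0.338 TPM. Erythroid genes reached 515 TPM in 1 CtslΔTEC library against 119 to 206 TPM in unstimulated controls, and none of the 4 tested passed between genotypes. The file names carry dates: CtslΔTEC mice 1 and 3 and control mouse 4 share the first, CtslΔTEC mice 2, 4 and 5 and control mice 1, 2 and 3 the second, and all stimulated libraries another. The first holds 1 control, so only the second gives a value of its own.

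Before stimulation the family was dominated by one inhibitor and one effector. In TPM, a relative abundance corrected for transcript length that allows genes to be compared, Mcl1 stood at 222 ± 19.4 in controls (SD, n = 4) and Bax at 131 ± 22.6. Bak1, Bbc3, Bcl2, Bcl2l11 and Bcl2l1 followed between 31.3 and 14.5 TPM on average. Bcl2a1b (4.71 TPM), Bcl2a1d (1.38 TPM) and Pmaip1 (1.28 TPM) were lowest. Among these neighbours the ranges of Bbc3 and Bcl2, of Bcl2 and Bcl2l11, and of Bcl2a1d and Pmaip1 overlapped between libraries, so their order is not resolved. In CtslΔTEC cells the order was led by the same pair (Mcl1 at 233 ± 39.4 TPM and Bax at 123 ± 18.9 TPM; SD, n = 5), but Bbc3, at 7.48 TPM, had a range overlapping that of Bcl2a1b, and Bcl2l11, at 27.2 TPM, overlapped Bak1.

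After 4 h of stimulation the order was different. Bcl2a1b led at 373 TPM in controls and 464 TPM in CtslΔTEC cells, Bcl2l1 stood at 210 and 230 TPM, Bcl2a1d at 188 and 199 TPM, and Mcl1 had dropped to 158 and 148 TPM. The ranges of Bcl2l1, Bcl2a1d and Bax overlapped in both stimulated groups. Pmaip1 had the lowest mean in all 4 groups. The plot of levels by library shows all 10 genes.

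**Figure D1:**
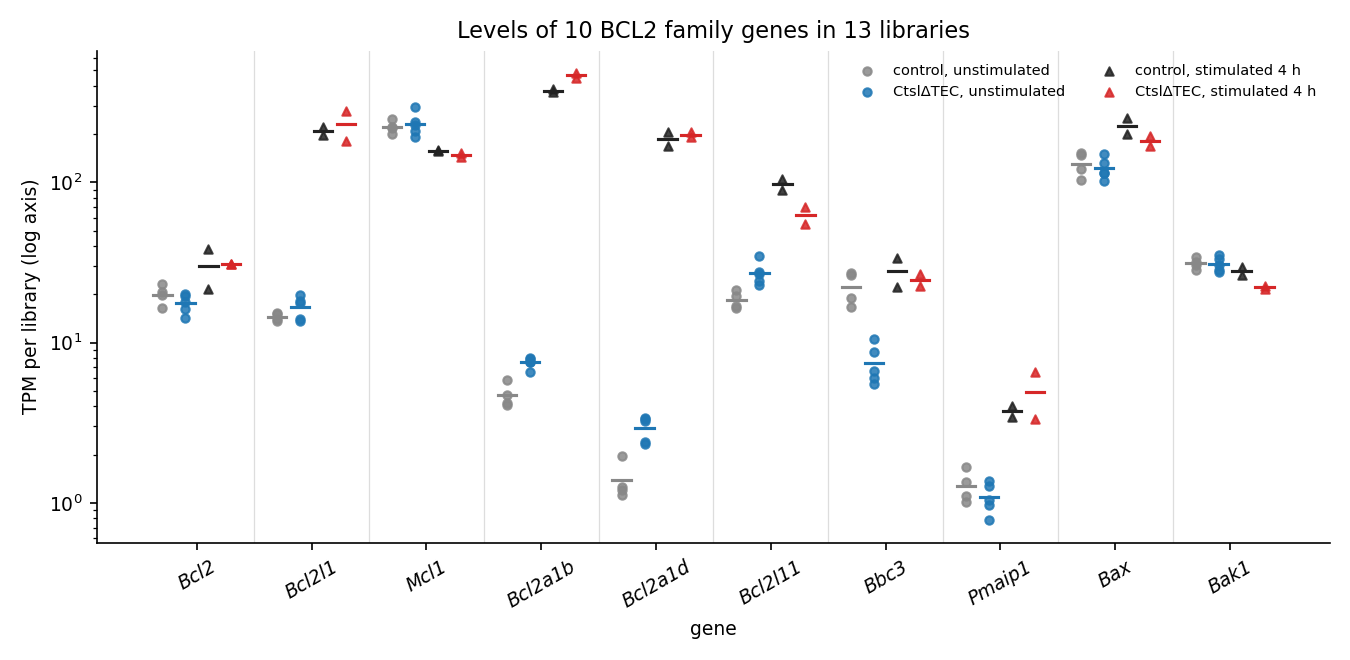
TPM of each gene (x axis) in each of the 13 libraries on a log axis; circles are unstimulated, triangles are stimulated for 4 h, short lines are group means. Bcl2a1b, Bcl2a1d and Bcl2l1 separate stimulated from unstimulated libraries most widely, and Bbc3 separates the unstimulated genotypes.

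The first question was whether the genotypes differed in these genes at rest. Bbc3 fell and Bcl2l11, Bcl2a1b and Bcl2a1d rose in CtslΔTEC cells, so that 4 of 10 members passed an adjusted p of 0.1, beside 14.8% of all 13152 genes tested; 3 were higher (6.42% of all genes) and 1 lower (8.36%). The 10 log2 fold changes had a median of -0.05, and those of all genes a median of 0.01. Fold changes come from edgeR on estimated counts and are CtslΔTEC over control, while levels are TPM. In sorted bulk cells a lower level can mean fewer cells of a kind or less RNA per cell, and these cannot be told apart.

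Among the inhibitors, Bcl2, the main survival gene downstream of the interleukin-7 receptor, was at 23.1, 20.5, 19.7 and 16.4 TPM in control mice 1 to 4. In CtslΔTEC mice 1 to 5 it was at 16.2, 17.9, 20.1, 14.3 and 19.7 TPM. The ranges overlapped, and the difference did not pass the test (log2 fold change -0.23, SE 0.11, adjusted p = 0.251). Bcl2l1 (log2 fold change 0.16, SE 0.11) and Mcl1 (0.00, SE 0.10), which encodes the short-lived MCL-1, did not pass either.

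The A1 genes were low but higher in every CtslΔTEC library. Bcl2a1b was at 4.73, 4.05, 5.83 and 4.23 TPM in control mice 1 to 4 and at 8.04, 6.57, 7.92, 7.59 and 7.51 TPM in CtslΔTEC mice 1 to 5. It rose 1.57-fold (log2 fold change 0.65, SE 0.16, adjusted p = 0.0207). Bcl2a1d was at 1.25, 1.21, 1.96 and 1.11 TPM in controls and at 2.33, 3.34, 3.24, 3.39 and 2.40 TPM in CtslΔTEC mice, a 2.09-fold rise (log2 fold change 1.06, SE 0.23, adjusted p = 0.0107). For both genes the groups did not overlap, and the highest control was mouse 3, the control with Y-linked transcripts. When the level of the 4 Y-linked genes entered the fit as a covariate, neither gene passed the test (log2 fold change 0.38, SE 0.25, adjusted p = 0.636 for Bcl2a1b and 0.58, SE 0.34, adjusted p = 0.59 for Bcl2a1d), and in the 6 libraries of the second date in the file names Bcl2a1b had an adjusted p of 0.104 and Bcl2a1d of 0.0482.

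These paralogs are hard to tell apart by reads. Over the aligned length, 810 of 817 bases of the Bcl2a1b transcript were identical in Bcl2a1d, and of the 31-base words of each transcript only 88 of 787 in Bcl2a1b and 91 of 833 in Bcl2a1d occurred in no other gene of the reference transcriptome. Another copy, Bcl2a1a, was assigned at most 2.26 estimated counts in any library. Bcl2a1b also shares exon sequence on the same strand with Gm29094, which was at 0.67 TPM or less in unstimulated libraries and at 9.52 to 17.5 TPM in stimulated ones. Summed to 1 gene, the 3 copies rose in CtslΔTEC cells (log2 fold change 0.77, SE 0.14, adjusted p = 0.00477).

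The sequence before their starts is nearly the same as well, and is shown because both genes respond so strongly to stimulation below. Of 200 aligned bases in the windows of 250 bases upstream of the RefSeq starts, 198 were identical. The part of each window that holds no annotated exon is shown (RefSeq, GRCm38.p6), chr9:89199023-89199208 on the plus strand and chr9:88731915-88731997 on the minus strand. Capitals mark TGANTCA, a loose form of the AP-1 site with any base in the middle, and GGAAAA, the core bound by NFAT. Each was searched on both strands, with no overlap between them. Both marked AP-1 stretches read TGAATCA, which a search limited to C or G in the middle would not find.
Bcl2a1b: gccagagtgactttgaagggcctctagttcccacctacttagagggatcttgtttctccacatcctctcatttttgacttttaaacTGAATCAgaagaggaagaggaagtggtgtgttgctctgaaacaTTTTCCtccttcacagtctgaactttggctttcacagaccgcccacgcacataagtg
Bcl2a1d: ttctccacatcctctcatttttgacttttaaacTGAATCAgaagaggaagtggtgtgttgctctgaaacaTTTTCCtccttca
The AP-1 letters occur in 6.75% of the 32851 upstream windows in the table and the NFAT letters in 20.43%; among the 14 windows of members that were searched, 2 held the former, those of Bcl2a1b and Bcl2a1d, and 5 held the latter. A match describes the letters and does not show binding.

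Of the 3 BH3-only genes 1 rose, 1 fell and 1 did not pass. Bcl2l11, whose product BIM drives thymic deletion, was at 21.4, 16.3, 16.8 and 19.4 TPM in control mice 1 to 4. In CtslΔTEC mice 1 to 5 it was at 34.5, 22.9, 27.5, 26.8 and 24.1 TPM. Every CtslΔTEC library lay above every control, and the gene rose 1.44-fold (log2 fold change 0.53, SE 0.08, adjusted p = 0.00142). The control with Y-linked transcripts was at 16.8 TPM, and with the Y-linked covariate the log2 fold change was 0.60 (adjusted p = 0.0665). Genotype and Y-linked transcripts nearly coincide at rest, so that fit cannot separate them. Within the second date the log2 fold change was 0.44 (SE 0.09, adjusted p = 0.0142).

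Bbc3, whose product PUMA is the p53-induced BH3-only protein that also acts when cytokine is withdrawn, showed the widest difference of the family at rest. It was at 16.7, 26.6, 19.1 and 27.1 TPM in control mice 1 to 4 and at 10.6, 6.65, 5.49, 5.99 and 8.68 TPM in CtslΔTEC mice 1 to 5. The groups did not overlap, and the gene fell 2.82-fold (log2 fold change -1.50, SE 0.21, adjusted p = 0.000865). The fall was -1.50 in the second date alone (adjusted p = 0.00207), -1.41 when only protein-coding transcripts were summed, and -1.32 with the Y-linked covariate (adjusted p = 0.079). Pmaip1 was near 1 TPM in both groups, at 1.28 and 1.09 TPM on average, and its log2 fold change of -0.20 (SE 0.24) did not pass the test.

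The sums of the DP and mature marker genes do not overlap between the unstimulated genotypes, so genotype and the mix of maturation stages cannot be told apart here. The effectors did not pass: Bax had a log2 fold change of -0.13 (SE 0.14) and Bak1 of -0.10 (SE 0.08). Bax ranged from 104 to 152 TPM in controls and from 102 to 151 TPM in CtslΔTEC libraries, nearly the same span.

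**Figure D2:**
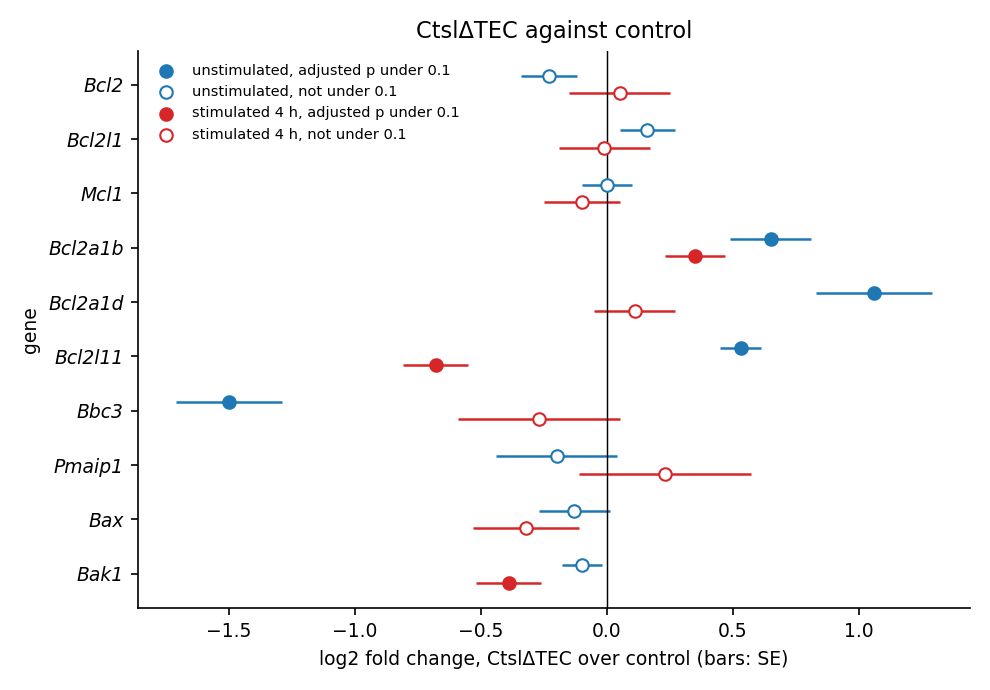
Log2 fold change of CtslΔTEC over control (x axis, bars are SE) for each gene, in unstimulated and stimulated cells; filled circles have an adjusted p under 0.1. Bcl2l11 lies right of 0 at rest (0.53) and left of 0 after stimulation (-0.68), and Bbc3 lies at -1.50 at rest.

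The upstream windows of both BH3-only genes are shown because Bcl2l11 and Bbc3 are known targets of the FOXO factors. Capitals mark GTAAACA, the letters bound by FOXO factors, on either strand, in chr2:128125788-128126037 and chr7:16310011-16310260, both on the plus strand (RefSeq, GRCm38.p6).
Bcl2l11: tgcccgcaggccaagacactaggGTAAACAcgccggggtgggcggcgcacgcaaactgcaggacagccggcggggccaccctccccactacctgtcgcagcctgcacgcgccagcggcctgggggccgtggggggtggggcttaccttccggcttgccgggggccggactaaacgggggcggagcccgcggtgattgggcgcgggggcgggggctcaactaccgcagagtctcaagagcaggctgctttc
Bbc3: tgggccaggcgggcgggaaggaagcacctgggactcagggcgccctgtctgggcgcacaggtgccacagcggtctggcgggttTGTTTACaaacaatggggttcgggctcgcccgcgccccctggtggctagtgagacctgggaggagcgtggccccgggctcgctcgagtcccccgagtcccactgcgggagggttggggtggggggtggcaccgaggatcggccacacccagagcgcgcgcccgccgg
The letters begin 227 bases before the Bcl2l11 start and 167 bases before the Bbc3 start. They occur in 3.17% of all upstream windows, and no window of another searched member held them. Both genes have further RefSeq starts whose windows do not hold these letters.

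After 4 h of stimulation the genotypes were compared again. Bcl2l11 and Bak1 fell and Bcl2a1b rose, so that 3 of 10 passed, beside 13.3% of 14241 genes; 1 was higher (2.77% of all genes) and 2 lower (10.6%). The 10 values had a median of -0.053, and those of all genes -0.055. Of the 7 activation genes 1 differed, Il2, at 72.0 TPM in controls and 5.98 TPM in CtslΔTEC cells, while Cd69 averaged 2568 and 3135 TPM. Their sum was 7232 and 9311 TPM in controls and 10060 and 10459 TPM in CtslΔTEC cells, without overlap, and its part in the genotype differences was not tested. Over all genes 395 were higher and 1503 lower, against 150 and 795 without CtslΔTEC mouse 6, 203 and 1051 without CtslΔTEC mouse 7, 112 and 854 without control mouse 5 and 622 and 1613 without control mouse 6. By DESeq2 594 genes were higher and 1494 lower. With the 4 stimulated libraries alone 339 were higher and 788 lower, and the median log2 fold change was 0.0023. There were 2 mice a group, and in the main test their spread was estimated together with that of the unstimulated groups.

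Bcl2l11 was at 89.7 and 105 TPM in control mice 5 and 6 and at 55.2 and 69.8 TPM in CtslΔTEC mice 6 and 7. The order of the genotypes was thus the opposite of that at rest, without overlap, and the fall was 1.60-fold (log2 fold change -0.68, SE 0.13, adjusted p = 0.00451). Leaving out any 1 of the 4 mice kept the call, at adjusted p from 0.00696 to 0.0691. Within each group 1 library held Y-linked transcripts, and with them as a covariate the log2 fold change was -0.69.

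The other calls in stimulated cells were weak. Bak1 was at 29.6 and 26.5 TPM in controls and at 21.7 and 22.5 TPM in CtslΔTEC cells (log2 fold change -0.39, SE 0.13, adjusted p = 0.073). Its exons overlap Ggnbp1 on the opposite strand, at 2.23 to 8.31 TPM, and its call was lost without control mouse 5 (adjusted p = 0.443), CtslΔTEC mouse 6 (0.204) or CtslΔTEC mouse 7 (0.234), and when only protein-coding transcripts were summed (0.295). Bcl2a1b was at 381 and 365 TPM in controls and at 448 and 480 TPM in CtslΔTEC cells, with an adjusted p of 0.0997 that no longer passed when any 1 mouse was left out, and the summed Bcl2a1 genes had an adjusted p of 0.22. Bbc3, so different at rest, was at 33.6 and 22.1 TPM in controls and at 22.5 and 26.9 TPM in CtslΔTEC cells, overlapping (log2 fold change -0.27, SE 0.32, adjusted p = 0.694).

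Stimulated and unstimulated cells were then compared within each genotype. In control cells 8 of 10 members passed, beside 67.7% of 14241 genes, 7 higher (32.9% of all genes) and 1 lower (34.8%), and the median over the members was 1.32 on the log2 scale against 0.009 over all genes. In CtslΔTEC cells all 10 passed, beside 71.2% of genes, 8 higher (32.9%) and 2 lower (38.2%), and the medians were 1.44 and -0.064. Most genes were called over the whole table, so these counts say little about the family, and the sizes are given by gene. The stimulated libraries carry their own date in the file names and come from other mice, so stimulation, date and culture cannot be told apart.

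The A1 genes rose most. From the levels given above Bcl2a1b went up 85.7-fold in control cells (log2 fold change 6.42, SE 0.12) and 69.4-fold in CtslΔTEC cells (6.12, SE 0.11). Bcl2a1d was at 207 and 168 TPM in stimulated controls and at 192 and 205 TPM in stimulated CtslΔTEC cells, up by 7.22 (SE 0.18) and 6.26 (SE 0.15) on the log2 scale. Bcl2l1, encoding BCL-xL, rose 13-fold in control cells (log2 fold change 3.70, SE 0.16) to 222 and 199 TPM, and 11.6-fold in CtslΔTEC cells (3.54, SE 0.14) to 182 and 277 TPM.

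Bcl2 rose far less, with a log2 fold change of 0.58 (SE 0.17, adjusted p = 0.00757) in control cells and 0.86 (SE 0.16, adjusted p = 0.000227) in CtslΔTEC cells. The stimulated controls stood apart from each other, at 21.6 TPM in mouse 5 and 38.1 TPM in mouse 6, and without mouse 6 the control response was 0.20 with an adjusted p of 0.395. Mcl1 was the inhibitor that fell, by 0.40 (SE 0.13) on the log2 scale in control cells and by 0.49 (SE 0.13) in CtslΔTEC cells, and its control response did not pass without control mouse 6 (adjusted p = 0.135).

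Of the 5 BH3-only and effector genes, 3 rose in control cells, and in CtslΔTEC cells 4 rose and 1 fell. Bcl2l11 rose 5.73-fold in control cells (log2 fold change 2.52, SE 0.11) and 2.48-fold in CtslΔTEC cells (1.31, SE 0.10). Pmaip1 reached 3.44 and 4.02 TPM in stimulated controls and 6.52 and 3.36 TPM in stimulated CtslΔTEC cells, above every unstimulated library, a rise of 1.73 (SE 0.29) and 2.16 (SE 0.27) on the log2 scale. Bax was at 251 and 201 TPM in stimulated controls and at 169 and 195 TPM in stimulated CtslΔTEC cells, again above every unstimulated library, and rose by 0.92 (SE 0.18) and 0.73 (SE 0.17). Bbc3 rose in CtslΔTEC cells (log2 fold change 1.56, SE 0.26, adjusted p = 8.31e-05), and in control cells, whose resting mean was 22.4 TPM, its log2 fold change was 0.33 (SE 0.28, adjusted p = 0.319). Bak1 fell by 0.35 (SE 0.11) in CtslΔTEC cells, a call that did not hold over protein-coding transcripts alone (-0.28, adjusted p = 0.175), and its value in control cells was -0.06 (SE 0.11).

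**Figure D3:**
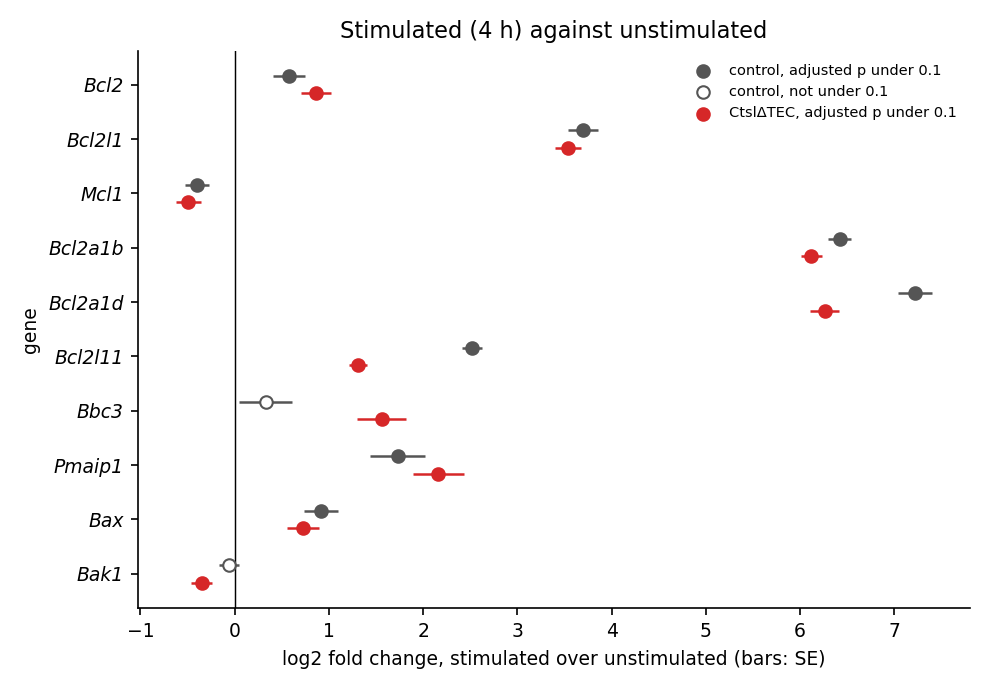
Log2 fold change of stimulated over unstimulated cells (x axis, bars are SE) for each gene in control cells (grey) and CtslΔTEC cells (red); filled circles have an adjusted p under 0.1. The genotypes lie furthest apart at Bcl2l11 (2.52 against 1.31) and Bbc3 (0.33 against 1.56).

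Whether the response differed between genotypes was tested by the interaction of genotype and stimulation, as a log2 difference of CtslΔTEC minus control responses. It passed for 2 of 10 members, both with the smaller response in CtslΔTEC cells, beside 6.01% of 14241 genes in either direction, 4.88% lower and 1.13% higher. The members had a median of -0.179 and all genes of -0.065. By DESeq2 the split over all genes was 306 higher and 731 lower, against 161 and 695 by edgeR; the edgeR counts were 180 and 438 without CtslΔTEC mouse 2, 173 and 399 without CtslΔTEC mouse 3, 62 and 272 without CtslΔTEC mouse 6, 99 and 516 without CtslΔTEC mouse 7, 49 and 291 without control mouse 5 and 340 and 887 without control mouse 6.

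Bcl2l11 had the clearest interaction (-1.21, SE 0.16, adjusted p = 0.00236), and it kept its call without any 1 of the 13 libraries, with adjusted p of at most 0.0231. Bcl2a1d had a value of -0.96 (SE 0.25, adjusted p = 0.0489), and its mean level was 2.94 against 1.38 TPM at rest and 199 against 188 TPM after stimulation. Its call was lost without CtslΔTEC mouse 2 (adjusted p = 0.107), 3 (0.101) or 6 (0.177) or control mouse 1 (0.111) or 5 (0.19), and the summed Bcl2a1 genes had an adjusted p of 0.117. Bbc3 had a value of 1.23 (SE 0.39) that missed the threshold at an adjusted p of 0.105 and passed it by DESeq2 (0.0246), with no count filter (0.0384), with a transcript-length offset (0.089), without CtslΔTEC mouse 1 (0.0462) and without control mouse 1 (0.0943). The remaining 7 members had values from -0.31 to 0.43 and did not pass.

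**Figure D4:**
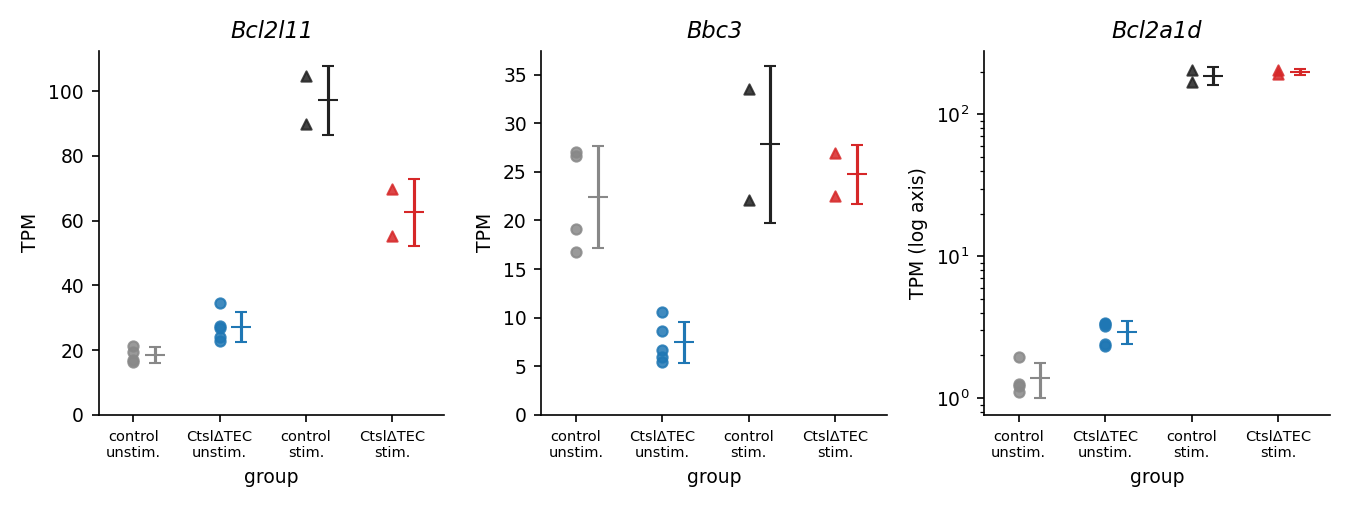
TPM of Bcl2l11, Bbc3 and Bcl2a1d in each library by group, with group mean and SD beside the points; the Bcl2a1d axis is logarithmic. Bcl2l11 is higher in CtslΔTEC cells at rest (mean 27.2 against 18.5 TPM) and lower after stimulation (62.5 against 97.2 TPM), while the Bbc3 libraries of the genotypes are apart at rest (mean 7.48 against 22.4 TPM) and overlap after stimulation.

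Ratios between members were compared within each library. The ratio of Bcl2 to Bcl2l11, in log2 TPM, was -0.25 to 0.33 in unstimulated controls and -1.09 to -0.29 in unstimulated CtslΔTEC libraries, a mean difference of -0.72 without overlap. After stimulation it was -2.05 and -1.46 in controls and -0.83 and -1.17 in CtslΔTEC cells, a mean difference of 0.75 in the opposite direction, again without overlap. The ratio of Mcl1 to Bcl2l11 differed by -0.49 at rest and by 0.55 after stimulation, also without overlap. The ratio of Bcl2 to Bcl2l1 overlapped between genotypes in both states and had means of 0.45 and -2.87 in unstimulated and stimulated controls. These ratios rest on the same libraries as the tests above and were given no test of their own.

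The groups also differed in which transcripts of a member carried its signal; shares of a gene's TPM are estimates of the quantification and were not tested. Bcl2l1-201 held 65.6% ± 7.26 (SD, n = 4) of Bcl2l1 in unstimulated controls, between 56.0 and 72.0%, and 51.4% ± 1.80 (SD, n = 5) in CtslΔTEC libraries, between 49.4 and 53.3%, so the genotypes did not overlap. Bcl2l1-202 was at 6.61% in controls and 21.9% in CtslΔTEC libraries, and here the ranges met, with 18.9% in the highest control and 17.3% in the lowest CtslΔTEC library. Stimulation brought Bcl2l1-208 from 7.90% to 29.1% in controls and from 7.54% to 34.0% in CtslΔTEC cells, and Bcl2l1-203 from 14.0% to 1.58% and from 9.84% to 1.16%.

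**Figure D5:**
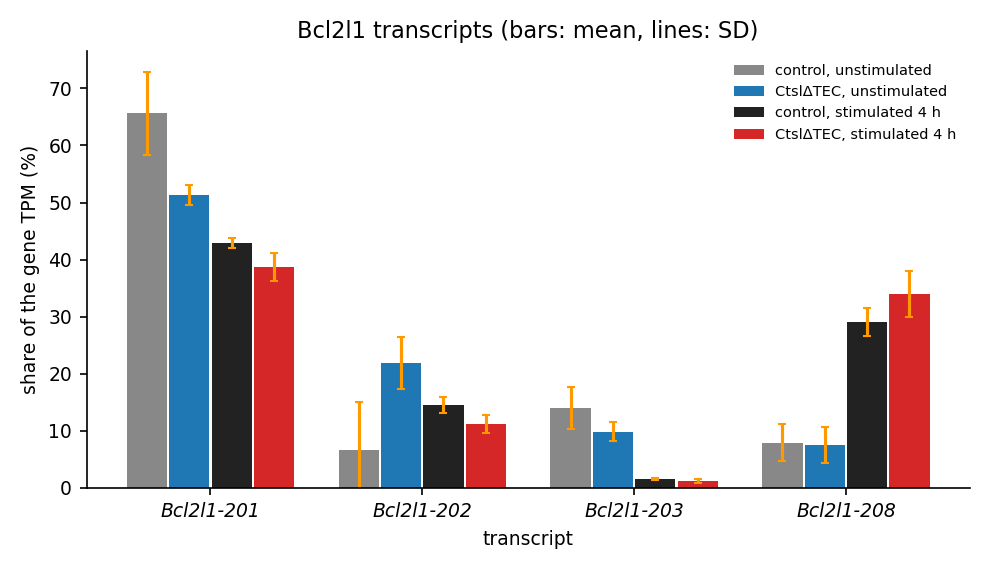
Share of the Bcl2l1 TPM on each of its 4 main transcripts (x axis) in percent, as group means (bars) with SD (lines). Bcl2l1-208 is below 10% in both unstimulated groups and at 29.1 and 34.0% in the stimulated control and CtslΔTEC groups.

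Bcl2-202, the less used of the 2 Bcl2 transcripts, went from 8.95% to 19.3% in controls and from 9.49% to 20.2% in CtslΔTEC cells. Bbc3-203, which is annotated as a retained intron and not as coding, held 12.01 and 20.49% of Bbc3 in stimulated CtslΔTEC cells and 0.94 and 1.41% in stimulated controls. At rest the order was the opposite, at 6.89% (3.92 to 10.42%) in controls and 1.06% (0 to 5.32%) in CtslΔTEC libraries, with ranges that overlapped. Bak1 carried 44.8 to 49.9% of its TPM, by group mean, on transcripts annotated as non-coding or subject to nonsense-mediated decay. Bcl2l11-205 was the main BIM transcript throughout, at 59.6 to 64.8% by group mean.

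The family was set beside 63 other survival and death genes in 5 groups. At rest 57 passed the filter, and 6 were higher and 6 lower in CtslΔTEC cells, around a median of 0.027 on the log2 scale, beside 6.42% and 8.36% of all genes; the counts by group below are small and stand beside the same shares. None was called with the Y-linked covariate, under which 121 genes of all were higher and 311 lower, against 844 and 1099 without it. Of the 11 other BCL2 family genes tested, 2 rose and 1 fell: Bmf, a BH3-only gene, rose by 1.12 (SE 0.23, adjusted p = 0.00873) on the log2 scale, from 2.31 to 5.03 TPM, and Bid, the link from death receptors to mitochondria, by 0.41 (SE 0.10). Of 21 genes of the apoptosome, caspases and their inhibitors, 2 rose and 1 fell, with Htra2, a mitochondrial protease, up by 0.35 (SE 0.11).

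The interleukin-7 receptor, STAT5 and FOXO group had 2 genes higher and 3 lower of 10. Il7r, the receptor chain that keeps mature T cells alive and one of the mature markers above, fell from 38.5 ± 7.0 TPM (SD, n = 4) to 19.3 ± 4.85 TPM (SD, n = 5), with a log2 fold change of -1.08 (SE 0.17, adjusted p = 0.00194), and Cish, a STAT5 target, rose by 0.57 (SE 0.19, adjusted p = 0.0885). Foxo1, a transcription factor that maintains Il7r, was at 78.1 and 58.9 TPM (log2 fold change -0.46, SE 0.07, adjusted p = 0.00167). Of 9 tested genes of p53 and its targets none was called; Bbc3, also a p53 target, is not counted among them. Of 6 genes of MCL1 turnover 1 fell, Trib2, a pseudokinase, by 0.27 (SE 0.06).

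In stimulated cells 2 of 59 tested genes of this wider list were higher and 13 lower in CtslΔTEC cells, beside 2.77% and 10.6% of all genes, which lean the same way, with a median of -0.188 against -0.055 for all genes. Among the other BCL2 family genes 2 of 11 fell: Bnip3l, a mitophagy receptor, by 0.93 (SE 0.15, adjusted p = 0.0019), from 41.7 to 26.0 TPM, and Bmf by 1.46 (SE 0.46, adjusted p = 0.0634), although Bmf was below 1 TPM in both groups and its mean TPM hardly differed. The apoptosome and caspase group had 1 higher and 5 lower of 21, with Endog, a mitochondrial nuclease, down by 0.76 (SE 0.26) and Casp9, the initiator caspase, down by 0.68 (SE 0.20). Il7r (log2 fold change -1.72, SE 0.30, adjusted p = 0.00296) and Foxo1 (-0.61, SE 0.12) were the 2 called of 10 in their group, both lower. The p53 group had 1 higher and 2 lower of 11, Phlda3 down by 2.22 (SE 0.74) and Sesn1 by 0.72 (SE 0.20), and MCL1 turnover 2 lower of 6, Trib2 by 0.57 (SE 0.14) and Gsk3b, a kinase that marks MCL-1 for degradation, by 0.32 (SE 0.10).

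In the response to stimulation 20 of 59 genes of this list rose and 27 fell in control cells, beside 32.9% and 34.8% of all genes. In CtslΔTEC cells 17 rose and 29 fell, beside 32.9% and 38.2%. Most genes were called over the whole table too, so the counts say little about the list. Cdkn1a, the p53-induced cell cycle inhibitor, rose by 8.14 (SE 0.25) on the log2 scale in control cells and by 8.18 (SE 0.24) in CtslΔTEC cells. Cish rose by 5.41 (SE 0.19) and 4.73 (SE 0.16), and Socs1, which like Cish restrains cytokine signals, by 3.74 (SE 0.25) and 3.31 (SE 0.23). Bnip3l had log2 fold changes of -2.19 (SE 0.14) in control cells and -3.07 (SE 0.15) in CtslΔTEC cells, Casp9 of -1.96 (SE 0.16) and -2.75 (SE 0.17), and Bmf of -1.31 (SE 0.33) and -3.89 (SE 0.39). Stimulated Bmf was low and nearly equal in TPM, with means of 0.778 in controls and 0.746 in CtslΔTEC cells. Gsk3b fell by 1.26 (SE 0.09) in control cells and by 1.57 (SE 0.09) in CtslΔTEC cells. Fbxw7, a ligase for MCL-1, rose by 1.50 (SE 0.16) in control cells and by 1.25 (SE 0.15) in CtslΔTEC cells, and Trib2 fell by 1.17 (SE 0.12) and by 1.48 (SE 0.12). Bcl2l14, called lower, and Perp, called higher, in both genotypes stayed under 1 TPM in every group mean, Bcl2l14 being listed at 0 in both stimulated controls and Perp at 0 in all 5 unstimulated CtslΔTEC libraries.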

How the data were processed

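RNA of sorted M2 CD4SP thymocytes was sequenced as paired reads of 150 bases. The authors deposited, per library, kallisto (version 0.48, Ensembl 106 transcripts) estimated counts and TPM for each transcript, with effective lengths. The labels name polyA RNA, and the study's methods name rRNA depletion. Whether the libraries are stranded is not given in the sources used here. The members and lists were chosen with earlier results of these data known.

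Transcripts were summed by gene through GENCODE M21: 116397 of 117497 transcripts were paired with a gene, and the remainder held at most 0.461% of a library. Estimated counts were rounded, low genes removed (filterByExpr), libraries scaled (TMM), and groups compared with edgeR 4.0.16 (quasi-likelihood test, R 4.3.3), Benjamini-Hochberg adjusted over all genes at 0.1, the study's threshold. Unstimulated genotypes were compared over 9 libraries, the other comparisons in a 4-group model of 13. DESeq2 1.42.0 was an alternative. The scripts were checked on simulated counts. Each library is 1 mouse. No libraries were identical.

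All 10 members were named, with the 2 genes of largest change among those called in each group of the wider list. Foxo1 at rest, Itgam, Csf1r, Itgax, Irf4, Cd5 and Epcam, and the values of Bnip3l, Casp9, Bmf, Fbxw7 and Trib2 in the response of the other genotype were named beyond this rule, after their values were seen. Some genes that the rule names are not reported here. Pmaip1 had no promoter window searched. Intervals for counting error were not computed, because estimated counts are not whole reads.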

Additional observations from a re-analysis of the deposited data

Results flagged for a closer look

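In 26 groups of 4 or 5 values tested for a library far from the others, of which chance singles out about 1 in 20, 1 stood apart: Bcl2a1d in unstimulated control mouse 3, at 1.96 TPM beside 1.11 to 1.25 TPM in the other 3 controls. This was the unstimulated control with Y-linked transcripts, and their part in its level was not tested apart from the covariate fit.

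The genotypes differed in their response to stimulation, by the interaction test, for Bcl2l11 (-1.21 on the log2 scale, adjusted p = 0.00236) and Bcl2a1d (-0.96, adjusted p = 0.0489). The Bcl2a1d call was lost without any of 5 single libraries (CtslΔTEC mouse 2, 3 or 6, control mouse 1 or 5; adjusted p of at most 0.19) and with the Bcl2a1 genes summed (adjusted p = 0.117). In the wider list the same test called 6 of 59 genes, 1 higher and 5 lower, beside 1.13% and 4.88% of all genes: Bmf (-2.58, adjusted p = 0.015), Bnip3l (-0.89, adjusted p = 0.0178), Htra2 (-0.87, adjusted p = 0.0478), Casp9 (-0.79, adjusted p = 0.0744), Sesn1 (-0.89, adjusted p = 0.053) and Il2rg (0.46, adjusted p = 0.0994), where a negative value is a smaller rise or a deeper fall in CtslΔTEC cells. The Bmf value rests on low levels, with means of 0.778 TPM in stimulated controls and 0.746 TPM in stimulated CtslΔTEC cells.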

How the results depend on the processing

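Of 423 alternative values for members called in the main tests, 394 kept their call and direction, 29 lost the call and none changed sign. At rest, members called went from 4 to 2 with the Y-linked covariate, which lost Bcl2a1b and Bcl2a1d. In stimulated cells they went from 3 to 1 at a threshold of 0.05, with no count filter and with a transcript-length offset, and to between 1 and 2 when single mice were left out (1 without CtslΔTEC mouse 6 or 7 or control mouse 5); Bcl2l11 was called in each. For the interaction they went from 2 to 1 with the Bcl2a1 genes summed, and to between 1 and 3 without single mice (1 without CtslΔTEC mouse 2, 3 or 6 or control mouse 5). The labels of the genotypes share mouse numbers, and correlations of deviations between same-numbered mice were -0.135, 0.298, -0.073 and -0.147 for mice 1 to 4. Such values, from so few libraries, cannot settle whether the samples were paired. With a replicate block over these 8 libraries Bcl2a1b lost its call (adjusted p = 0.12), the other 3 kept theirs, and 5 genes of the wider list were called against 7 in the same 8 libraries without the block, a fit chosen after seeing the data. The wider list at rest went from 12 called to 0 with the Y-linked covariate, 7 at 0.05, and 7 to 13 without single mice (7 without CtslΔTEC mouse 5 or control mouse 2). In stimulated cells it went from 15 to 9 at 0.05, 7 with the 4 stimulated libraries alone, and 6 to 15 without single mice (6 without CtslΔTEC mouse 7). For the interaction it went from 6 to 3 at 0.05, and 2 to 10 without single mice (2 without CtslΔTEC mouse 6 or control mouse 5, 10 without control mouse 6).

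Log2 values of members not called changed sign as follows. At rest, Pmaip1 was 0.01 in the second date and -0.31 to 0.02 without single mice, and Mcl1, at 0.00 in the main test, was -0.10 to 0.18 over other settings and -0.08 to 0.05 without single mice. In stimulated cells Bcl2l1 was 0.01 by DESeq2, 0.09 with the length offset, 0.03 for protein-coding transcripts, 0.04 with the 4 libraries alone, and -0.33 to 0.24 without single mice (0.24 without CtslΔTEC mouse 6, 0.13 without control mouse 5). There, without single mice, Pmaip1 was -0.15 to 0.54, Bcl2 -0.24 to 0.41, Bbc3 -0.58 to 0.05 and Bcl2a1d -0.10 to 0.32. In the control response Bbc3 was -0.02 to 0.61 and Bak1 -0.24 to 0.08. In the interaction Mcl1 was -0.20 to 0.06, Bcl2l1 -0.49 to 0.08, Bcl2 -0.01 to 0.64 and Bax -0.40 to 0.04. The cause was not tested. By CPM, which does not correct for length, 1 of 10 members kept its TPM rank in unstimulated controls, 4 in stimulated controls, and 2 in each CtslΔTEC group. The stimulated groups, with 2 mice each and a library of 8085463 counts, limit the precision of every comparison that uses them.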
